A study of Danio rerio with 35 samples.

Results

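In zebrafish embryos at 4 hours post fertilization (hpf), 150 transcripts were abundant in total RNA and at least 4 times lower in polyadenylated, or poly(A)+, RNA. They were taken from the deposited exon table of 27151 entries that each stand for 1 gene, after 846 entries joining several genes were left out of its 27997. Members were chosen by their WT values, as follows. An entry had to reach 10 RPKM (reads per kilobase of transcript, scaled to library size) in wild-type (WT) total RNA at 4 hpf, pass that 4-fold limit in WT RNA of the same age, and have a mean over the WT total RNA libraries at 6 hpf of at least 2 times the poly(A)+ value. Of 7368 entries at 10 RPKM or more, 425 met every threshold, and the 150 highest in WT total RNA at 4 hpf were kept. The microRNA hairpin entry mir-430 was left out.

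Most messenger RNAs end in a poly(A) tail, but the mRNAs of replication-dependent histones end in a short stem-loop that the stem-loop binding protein recognises. These histones package newly copied DNA, so their mRNAs are made in cells that replicate, and early embryos store them for the fast cleavage divisions. Maternal mRNAs can also sit in the egg with short tails that are later lengthened or lost, and such messages are captured poorly on oligo(dT).

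The study set embryos lacking the transcription factors Nanog, SoxB1 and Pou5f1 against WT embryos while the embryo clears its stored maternal RNA and starts to transcribe its own genome. Embryos were treated with the RNA polymerase II inhibitor alpha-amanitin, with the translation inhibitor cycloheximide, with U1U2 MO (morpholino antisense oligonucleotides against the U1 and U2 splicing RNAs), with Nanog MO, with SoxB1 MO or with both of these. The mutant was MZpou5f1, homozygous for the insertion hi349Tg and lacking both the maternal and the zygotic product. It was used alone, with Nanog MO, with SoxB1 MO, with both (the triple loss), and with both plus rescue mRNA, while untreated embryos were WT of strain TUAB. At 2, 4 and 6 hpf rRNA-depleted total RNA was sequenced strand-specifically, 5 whole embryos per library. Poly(A)+ RNA was sequenced from WT embryos at 4, 6 and 8 hpf, and from triple loss and rescued embryos at 6 and 8 hpf. Ribosome footprints and poly(A)+ input came from 50 Nanog+SoxB1 MO embryos and 50 WT embryos at 2 hpf. At 6 hpf there were 2 total RNA libraries of Nanog+SoxB1 MO embryos and 3 of WT embryos, and every other group had 1 library. Replicates are labelled only as separate samples, so p-values at 6 hpf measure the spread between these samples, which may be technical. The fits at 4 hpf and of footprints had no replicates, so their p-values measure departures from additive effects.

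Read counts cannot be had from RPKM, so absolute depth is unknown. The shallowest total RNA library, Nanog+SoxB1 MO replicate 1 at 6 hpf, had 0.227 of the depth of WT at 4 hpf. Some libraries stood apart. The MZpou5f1 library at 4 hpf had the highest level of these transcripts of any 4 hpf library. WT replicate 3 at 6 hpf differed most from the other WT replicates, with an SD of log2 differences over all genes of 0.413 and 0.373, against 0.276 between replicates 1 and 2. Among the 150 members replicate 1 differed most, with an SD of 0.522 from replicate 2 and 0.575 from replicate 3, against 0.353 between replicates 2 and 3. RPKM is a share of the library, and in whole embryos fewer cells of a type and less RNA per cell cannot be told apart.

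By name, the 150 transcripts fell into 5 classes. Histone names were carried by 9, names of cDNA or genomic clones (zgc and si names) by 19, and other gene names by 21. The remaining 101 entries had only an Ensembl identifier, which the tables used here do not pair with a name; 77 of them had no entry in the deposited intron table and 24 had one. A symbol was given for 49 of the 150, against 70.7% of all exon entries. The 9 histone-named members were the H2A.X variant entries h2ax and h2ax2, the H2A entries hist1h2a3, hist1h2a4 and hist1h2a11, the H3 entries hist2h3c and h3c13a, the linker histone h1l1, and zgc:165555, which has a histone name among its RefSeq synonyms and lies at chr25:36126535-36127477 in Zv9. Histone genes are multicopy and near-identical, so reads may be split between copies, and the level of any single histone entry is uncertain. In total 97 members (64.7%) had no intron entry, against 188 of the 7218 other entries at 10 RPKM or more (2.60%). Those 188, which failed the choice by other values, had a median log2 ratio of total to poly(A)+ RNA of 0.08 at 4 hpf, and 25 of them had at least 4 times more in total RNA. In the RefSeq gene order of assembly GRCz12tu, 6 of the 12 clone-named members that could be located had a histone-named gene within 10 protein-coding genes, against 1 of 14 other named members and 1.59% of 27039 protein-coding genes.

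The values that chose the members are given as a description only. The highest histone entry, h2ax, had 1555 RPKM in total RNA and 12.8 RPKM in poly(A)+ RNA of WT embryos at 4 hpf. The entry h2ax2 had 757 RPKM in total and 3.06 RPKM in poly(A)+ RNA, and h1l1 had 402 RPKM in total and 2.02 RPKM in poly(A)+ RNA. Of the 150, 93 had a poly(A)+ value at or below 1/100 of the total value. At the edges, jade1 (a scaffold of a histone acetyltransferase complex) was the last inside, at 60.6 RPKM, and an unnamed entry at 60.4 RPKM was the first outside. The gene bmb (brambleberry, needed for fusion of the nuclear envelopes of early blastomeres) was just inside the 4 hpf ratio at 0.248, and cdca9 was just outside at 0.252. At 6 hpf brwd3 was just inside at 2.06 times, and an unnamed entry just outside at 1.98 times. The H2A.X-named entry h2ax1 was not a member. In WT embryos it had 157 RPKM in total and 76.1 RPKM in poly(A)+ RNA at 4 hpf. At 6 hpf it had a mean of 192 RPKM in total and 341 RPKM in poly(A)+ RNA. Of 14 histone-named entries at 10 RPKM or more, the 5 left out included h2ax1 and the replacement H3.3 entries. In WT embryos at 4 hpf h3f3a had 1122 RPKM in total and 1762 RPKM in poly(A)+ RNA. At that stage h3f3d had 83.7 RPKM in total and 1123 RPKM in poly(A)+ RNA. The H2A.Z entry H2AZ2 had 182 RPKM in total and 440.1 RPKM in poly(A)+ RNA, also at 4 hpf.

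The triple loss at 6 hpf gave a pair of total and poly(A)+ libraries that the choice did not use. There 135 of the 150 had at least 2 times more in total than in poly(A)+ RNA, where 14.6% of all 7368 entries at 10 RPKM or more did. At least 4 times more was found for 121 members and 1.55% of the other entries. The median log2 ratio was 6.95 for the 150 and 0.26 for the other entries, and over all 425 entries that met every threshold it was 1.25. These are single libraries, with no replicate check. The ratio was high in all 9 histone-named members: h2ax had 3737 RPKM in total and 101 RPKM in poly(A)+ RNA, and h1l1 had 1603 RPKM in total and 18.8 RPKM in poly(A)+ RNA. The class medians of the log2 ratio were 6.37 for histone-named, 6.03 for clone-named, 7.60 for unnamed members without an intron entry and 6.92 for unnamed members with one, but 1.23 for the 21 other named members. Members under 2 times included si:ch211-235f12.2, with 148 RPKM in total and 156 RPKM in poly(A)+ RNA (0.95 times), and mir1306 and GPI, both at 1.21 times. Poly(A)+ levels of the members were themselves higher in the triple loss than in WT at 6 hpf, with a median log2 ratio of 1.58 against 0.67 for the other entries. The WT poly(A)+ value at 6 hpf entered the choice, which favours low WT values among the members. At 8 hpf, where neither library entered the choice, the same ratio had a median of 1.45 for the members and 0.59 for the other entries. The choice by low WT poly(A)+ values at 4 and 6 hpf also favours low WT values at 8 hpf, so this ratio is not free of it. The poly(A)+ level of fbxo33, an F-box gene, at 6 hpf was 79.9 RPKM in the triple loss, 32.4 RPKM in rescued embryos and 4.86 RPKM in WT embryos. That WT value entered the choice.

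**Figure D1:**
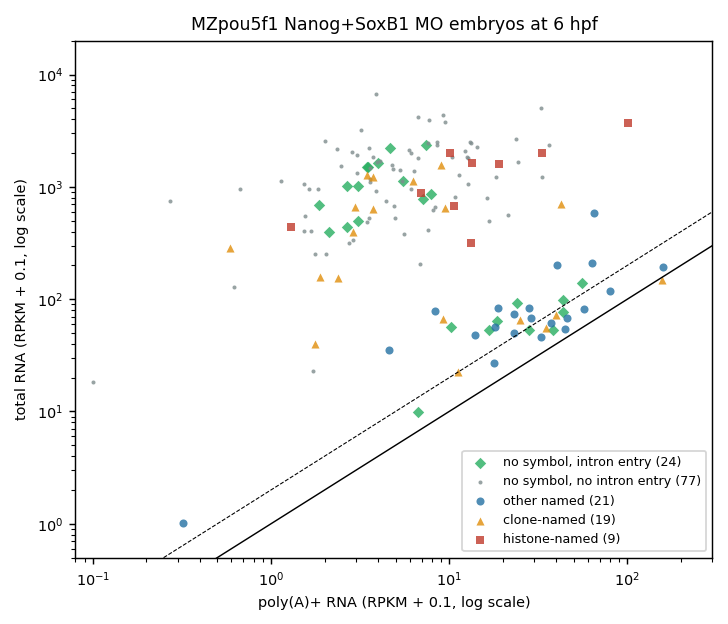
Total RNA level against poly(A)+ RNA level of the 150 transcripts in triple loss embryos at 6 hpf, both in RPKM + 0.1 on log scales, 1 library each, coloured by class with the number of members. The solid line marks equal levels and the dashed line 2 times more in total RNA; 135 of 150 lie at 2 times or more, and the other named members lie nearest to the lines.

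The 150 transcripts made up a large and changing share of the summed RPKM of the total RNA libraries. RPKM divides reads by transcript length, so this is not a share of reads or of RNA mass. In WT embryos they held 9.93% of the summed RPKM at 2 hpf, 17.0% at 4 hpf, and 30.1%, 27.5% and 29.5% in the 3 libraries at 6 hpf. In WT poly(A)+ RNA they held 0.196% at 4 hpf. The WT values at 4 and 6 hpf entered the choice, which favours a high WT share in total RNA and a low one in poly(A)+ RNA. At 6 hpf the share was 38.4% and 39.4% in Nanog+SoxB1 MO embryos and 38.9% in Nanog MO embryos, all above the WT libraries. In the mutant line the share was nearer to WT, at 31.3% in MZpou5f1, 32.1% in MZpou5f1 SoxB1 MO and 30.1% in triple loss embryos. It was 22.9% in amanitin-treated and 9.77% in cycloheximide-treated embryos, both below the WT libraries. At 4 hpf MZpou5f1 embryos stood at 24.5% and amanitin-treated embryos at 20.7%, above the other 4 hpf libraries, which lay between 14.0% and 17.0%. Most of the sum came from unnamed members without an intron entry (11.8% of the RPKM sum in WT at 4 hpf), while the 9 histone-named members held 0.675% at 2 hpf, 1.28% at 4 hpf and 2.26% to 2.54% at 6 hpf in WT embryos.

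**Figure D2:**
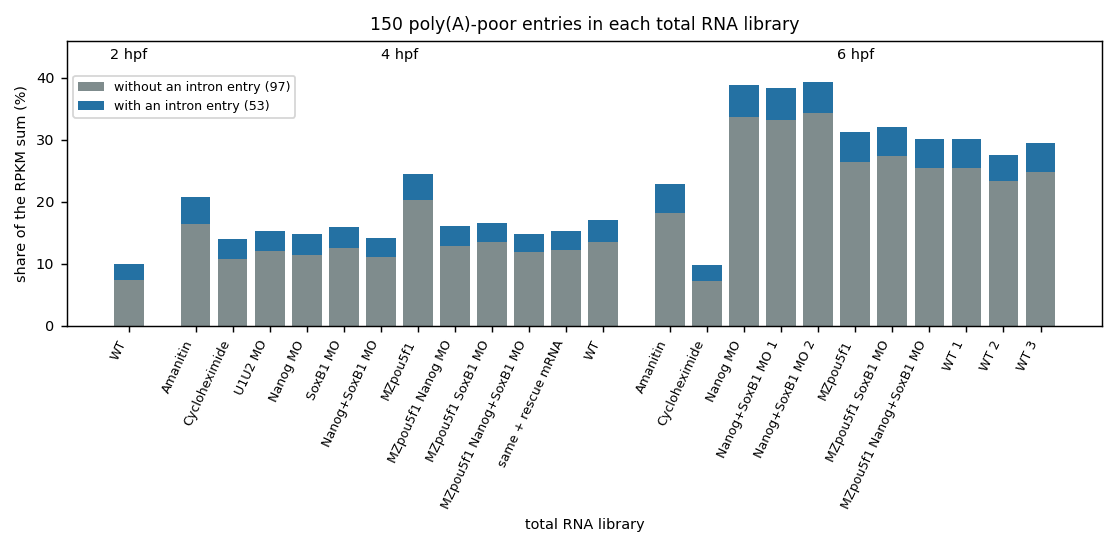
Share of the summed RPKM held by the 150 transcripts in each total RNA library, in percent, split into members without and with an entry in the intron table and ordered by stage. The share is 9.77% in cycloheximide-treated embryos and 38.4% and 39.4% in Nanog+SoxB1 MO embryos at 6 hpf, against 27.5% to 30.1% in the 3 WT libraries.

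Levels of histone-named members in WT embryos increased over the stages, although the WT values at 4 and 6 hpf entered the choice. The H2A.X entry h2ax had 553 RPKM at 2 hpf, 1555 RPKM at 4 hpf, and 5263, 5052 and 4528 RPKM at 6 hpf. The linker histone h1l1 had 44.9 RPKM at 2 hpf, 402 RPKM at 4 hpf, and 1384, 1049 and 1277 RPKM at 6 hpf. Levels above those at 2 hpf were also measured with RNA polymerase II inhibited. In amanitin-treated embryos at 4 hpf, 73 of the 150 were at least 2-fold above WT at 2 hpf, where 4.36% of all entries at 10 RPKM or more were. Of these 73, 60 were among the 97 without an intron entry. The same held for 61 members in WT, 31 in Nanog+SoxB1 MO and 28 in cycloheximide-treated embryos at 4 hpf. Of the 7217 other entries, it held for 295, 226 and 192. Members were chosen by high WT levels at 4 hpf, which favours high ratios to 2 hpf. The entry h2ax had 1609 RPKM with amanitin at 4 hpf and 553 RPKM in WT at 2 hpf, and the H3 entry hist2h3c had 1331 RPKM with amanitin and 678 RPKM in WT at 2 hpf. The linker histone h1l1 had 132 RPKM with amanitin at 4 hpf, where WT embryos had 44.9 RPKM at the 2 hpf stage and 402 RPKM at the 4 hpf stage. Each of these groups had 1 library, and these differences were not tested. Amanitin at 4 hpf was at least 2-fold above WT of the same age for 17 members and at least 2-fold below for 24, where 1.66% and 11.9% of entries were. Cycloheximide at 4 hpf was at least 2-fold above WT for 2 members and below for 19, where 2.95% and 4.75% of entries were. For both inhibitors, the WT library at 4 hpf chose the members by high values, which favours lower ratios to it. The most lowered named member was si:ch211-113a14.11, with 7.43 RPKM with cycloheximide and 133 RPKM in WT.

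**Figure D3:**
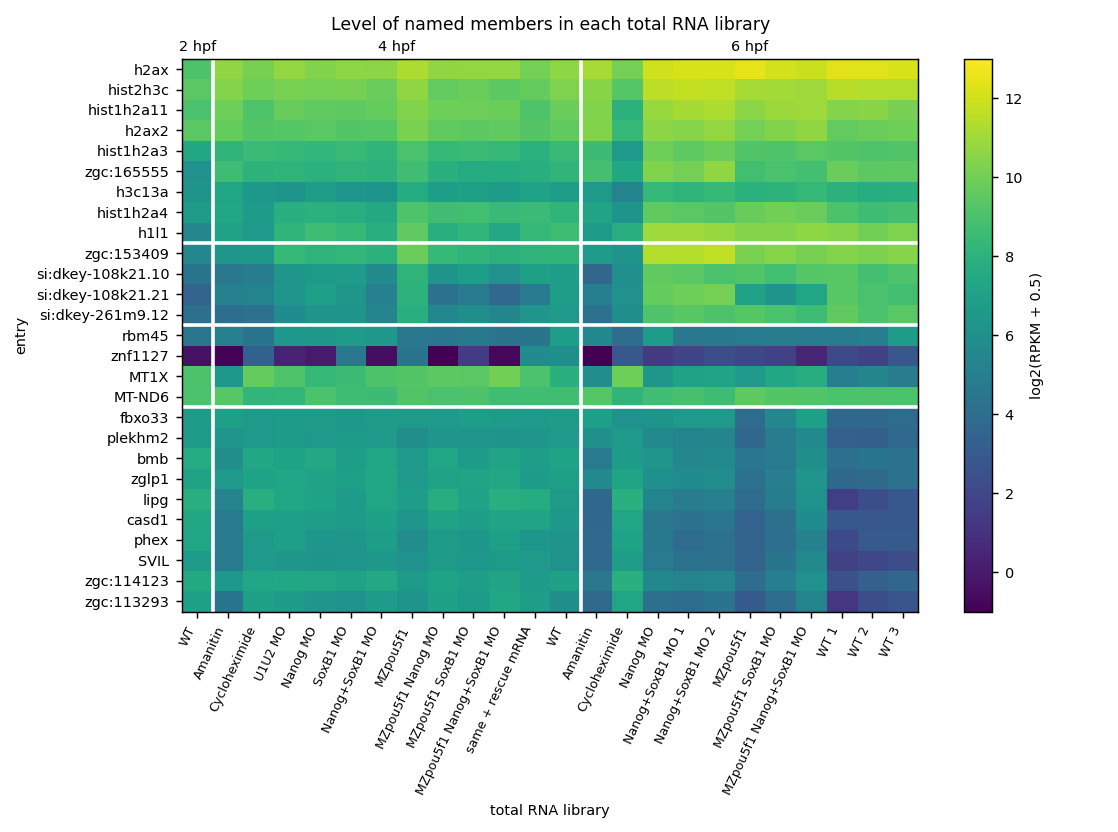
Level of 27 named members in each total RNA library, as log2(RPKM + 0.5), with libraries ordered by stage and treated or mutant embryos left of WT. Rows from the top are histone-named members, clone-named members, rbm45, znf1127, MT1X and MT-ND6, and members that are lower in WT at 6 hpf than at 2 hpf. With cycloheximide at 6 hpf h2ax has 1088 RPKM and lipg 237 RPKM, against 4528 to 5263 RPKM and 2.52 to 6.66 RPKM in the WT libraries.

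At 6 hpf, cycloheximide-treated embryos had lower levels of the histone-named members and higher levels of a group of other named transcripts that were already present at 2 hpf. The entry h2ax had 1088 RPKM with cycloheximide, against 5263, 5052 and 4528 RPKM in WT embryos. The difference was −2.18 on the log2(RPKM + 0.5) scale (SE 0.133, adjusted p = 4.79e-05, limma). The clone-named zgc:153409 had 76.8 RPKM with cycloheximide, against 1364, 1229 and 1392 RPKM in WT embryos, a log2 change of −4.10 (SE 0.134). All 9 histone-named members fell, with a median of −2.35. A list of 9 replacement histone genes had a median of −0.95. Of 13 protein-coding entries of the mitochondrial genome 12 fell and 0 rose, with a median of −1.02. Of 21 genes for proteins of small nuclear ribonucleoproteins 12 fell and 2 rose, with a median of −0.55. Of 21 regulators of small nuclear RNAs and 7SK RNA, 14 rose and 0 fell. Over the 150, 28 rose and 113 fell, where 37.5% of all 16242 genes tested rose and 23.0% fell, and the median was −1.85 for the members and 0.35 for all genes. Of the 97 members without an intron entry 4 rose and 92 fell. Calls used limma with a Benjamini-Hochberg adjusted p under 0.05 over all genes tested. The single cycloheximide library was taken to vary like the replicated groups, and the WT mean, which is also the other side of the amanitin and Nanog+SoxB1 MO comparisons with WT, had entered the choice of members.

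The 21 other named members went the other way: 15 rose and 1 fell with cycloheximide, with a median of 2.25. Over all genes tested 37.5% rose and 23.0% fell, with a median of 0.35. The gene lipg (endothelial lipase) had 237 RPKM with cycloheximide, against 2.52, 4.66 and 6.66 RPKM in WT embryos at 6 hpf. Its cycloheximide level was close to the 231 RPKM of WT embryos at 2 hpf, and its log2 change at 6 hpf was 5.62 (SE 0.430, adjusted p = 9.6e-05, limma). The gene casd1 (a sialic acid O-acetyltransferase) had 147 RPKM with cycloheximide, against 6.85, 6.57 and 6.70 RPKM in WT, and SVIL (supervillin, an actin-binding protein) had 114 RPKM with cycloheximide against 2.83, 3.49 and 4.49 RPKM in WT. The WT replicates did not overlap the treated value for any of these 3 genes. The metallothionein entry MT1X had 973 RPKM with cycloheximide, against 30.8, 41.6 and 29.9 RPKM in WT embryos. The 3 maternal markers zar1, btg4 and buc, which are no members, also rose, with summed levels of 1009.7 RPKM with cycloheximide and 22.5 to 30.1 RPKM in WT libraries. Of 9 measured markers of embryonic regions (enveloping layer, yolk syncytial layer, organizer, ventral side and mesoderm), 1 rose and 8 fell, with summed levels of 76.8 RPKM with cycloheximide against 1948 to 2182 RPKM in WT and krt17 listed at 0 with cycloheximide. The part of these shifts in the members' change was not tested.

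Amanitin at 6 hpf separated the members further. The linker histone h1l1 had 97.1 RPKM with amanitin, against 1384, 1049 and 1277 RPKM in WT embryos, and fell by 3.65 on the log2 scale (SE 0.171, adjusted p = 1.04e-05, limma). The clone-named si:dkey-108k21.10 had 11.8 RPKM with amanitin, against 653, 448 and 559 RPKM in WT, a log2 change of −5.47 (SE 0.238). Both values lay far below every WT replicate. The entry h2ax fell less, with 2258 RPKM with amanitin against 5263, 5052 and 4528 RPKM in WT, and hist1h2a11 had 1282 RPKM with amanitin, inside the WT range of 1114 to 1461 RPKM. The median log2 change was −0.91 for the histone-named members and also −0.91 for the list of 9 replacement histone genes. Of the 9 histone-named members 1 rose and 7 fell; the 1 was h2ax2, with 1301 RPKM with amanitin and 800.5, 901 and 965 RPKM in WT (log2 change 0.55, adjusted p = 0.0198, limma), and its call was lost without a filter on low values. Over the 150, 31 rose and 57 fell, where 31.0% of all genes rose and 28.7% fell, and the number that rose was 16 without the filter on low values. As with cycloheximide, the single amanitin library was taken to vary like the replicated groups. The members without an intron entry gave 5 higher and 51 lower of 97, and those with one 26 higher and 6 lower of 53. Among the 21 other named members 15 rose and 1 fell, with fbxo33 at 119 RPKM with amanitin against 12.5, 12.1 and 15.2 RPKM in WT embryos (log2 change 3.13, SE 0.167). The lysosome adapter gene plekhm2 had 63.9 RPKM with amanitin against 9.24, 8.84 and 13.3 RPKM in WT. The calls of lipg, phex and zgc:113293 here needed both Nanog+SoxB1 MO replicates in the fit, and that of bmb was lost without either of them or without WT replicate 1 or 3. The 9 region markers all fell and the 3 maternal markers all rose, with summed levels of 2.98 RPKM for the region markers with amanitin and 1948 to 2182 RPKM in WT, and 293 RPKM for the maternal markers with amanitin and 22.5 to 30.1 RPKM in WT; their part in the members' change was not tested.

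In Nanog+SoxB1 MO embryos at 6 hpf the change ran mostly upward. The clone-named zgc:153409 had 2834 and 3204 RPKM in Nanog+SoxB1 MO embryos, against 1364, 1229 and 1392 RPKM in WT embryos. It rose by 1.18 (SE 0.106, adjusted p = 3.51e-04, limma), and the groups did not overlap. The entry hist1h2a11 had 2231 and 2509 RPKM in Nanog+SoxB1 MO embryos against 1341, 1461 and 1114 RPKM in WT, a log2 change of 0.87 (SE 0.137, adjusted p = 0.00301, limma). In contrast h2ax had 4485 and 4497 RPKM in Nanog+SoxB1 MO embryos against 5263, 5052 and 4528 RPKM in WT, with a log2 difference of −0.14 that did not pass (adjusted p = 0.325, limma). Of the 9 histone-named members 6 rose and 0 fell, but with each library centred on its median only hist1h2a11 and h2ax2 of those 6 passed. Over the 150, 80 rose and 2 fell, where 30.3% of all genes rose and 14.0% fell; with median-centred libraries the split was 45 and 16, and without the filter on low values 52 and 1. The member median was 0.53 and that of all genes 0.30. Without Nanog+SoxB1 MO replicate 1 the count was 51 higher, and without replicate 2 it was 47. The 2 that fell became 1 without WT replicate 1 or either Nanog+SoxB1 MO replicate, and 4 without WT replicate 2.

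Other named members were also higher in Nanog+SoxB1 MO embryos at 6 hpf, 15 of 21 rising and 0 falling with a median of 1.32. Over all genes tested 30.3% rose and 14.0% fell, with a median of 0.30. The gene fbxo33 had 94.5 and 91.1 RPKM, against 12.5, 12.1 and 15.2 RPKM in WT embryos, a log2 change of 2.77 (SE 0.132, adjusted p = 5.17e-05, limma). The gene lipg had 29.4 and 34.2 RPKM in Nanog+SoxB1 MO embryos against 2.52, 4.66 and 6.66 RPKM in WT, and zglp1 had 56.4 and 56.8 RPKM in Nanog+SoxB1 MO embryos against 12.3, 14.0 and 18.7 RPKM in WT. All 3 were higher in both Nanog+SoxB1 MO libraries than in every WT library. The 3 maternal markers rose too, with summed levels of 210.4 and 231 RPKM in Nanog+SoxB1 MO embryos against 22.5 to 30.1 RPKM in WT, and the 9 region markers fell, with 507 and 437 RPKM in Nanog+SoxB1 MO embryos against 1948 to 2182 RPKM in WT; their part in the members' change was not tested.

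When amanitin-treated embryos were compared with Nanog+SoxB1 MO embryos, neither side had entered the choice, although the spread came partly from the WT replicates. The amanitin side is 1 library. Of the 150, 5 rose and 87 fell, where 11.2% and 25.8% of all genes did, with medians of −0.76 for the members and −0.15 for all genes; with median-centred libraries the split was 16 and 59, and without the filter on low values 2 and 55. The 5 were 10 without WT replicate 3, 3 without Nanog+SoxB1 MO replicate 1 and 0 without replicate 2. Of the 97 members without an intron entry 1 rose and 73 fell, and of the 9 histone-named members 8 fell. The entry h1l1 had 97.1 RPKM with amanitin, against 1988 and 1833 RPKM in Nanog+SoxB1 MO embryos, a log2 change of −4.29 (SE 0.181, adjusted p = 1.48e-05, limma). The entry hist2h3c had 1465 RPKM with amanitin against 3342 and 3204 RPKM in Nanog+SoxB1 MO embryos, a change of −1.16 (SE 0.123). The median was −1.16 for the 9 histone-named members and −0.99 for the list of 9 replacement histone genes. The mitochondrial ND6 message MT-ND6, whose human counterpart lacks a poly(A) tail, had 641 RPKM with amanitin against 478 and 403 RPKM in Nanog+SoxB1 MO embryos, and its call was lost without Nanog+SoxB1 MO replicate 2. Of the 13 protein-coding entries of the mitochondrial genome 7 rose and 0 fell, with a median of 0.67. Amanitin, cycloheximide and Nanog+SoxB1 MO were all set against the same 3 WT libraries, and this comparison shares its libraries with 2 of those.

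**Figure D4:**
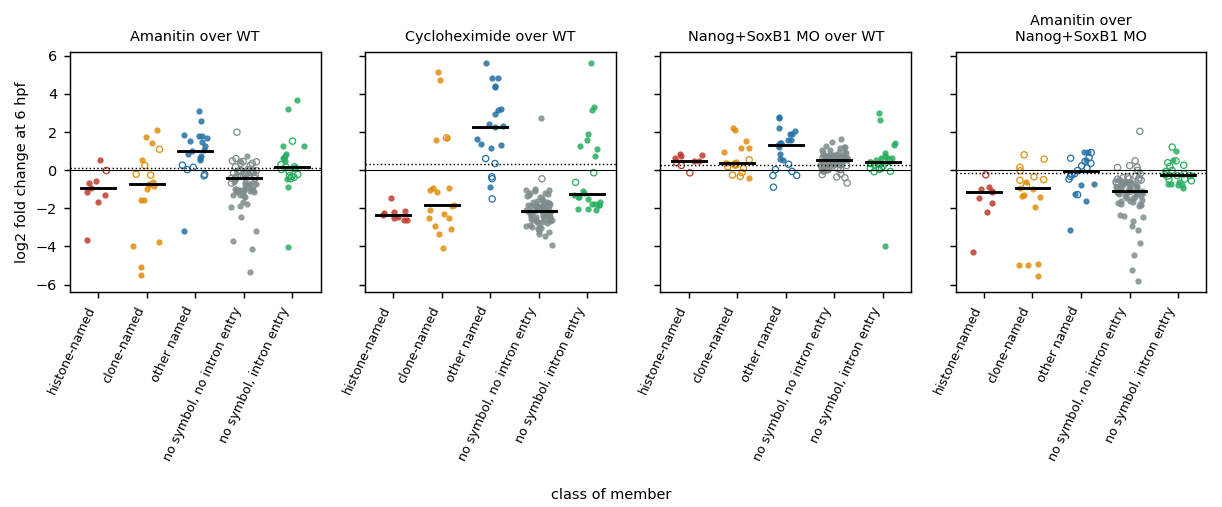
Log2 fold change of each of the 150 transcripts at 6 hpf by class, for 4 comparisons. Filled points passed an adjusted p under 0.05 (limma), open points did not, short bars are class medians and the dotted line is the median of all genes tested. With cycloheximide the histone-named median is −2.35 and the other named median 2.25.

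At 4 hpf the effects of Nanog MO, SoxB1 MO and MZpou5f1 were estimated from 7 factor-loss libraries without the WT library, since that library chose the members. With 1 library per group, the spread in this fit is the departure from additive effects. The MZpou5f1 term sets the mutant line against embryos not of that line. Loss of Pou5f1 and other differences between the lines therefore cannot be told apart. With Nanog MO 9 of the 150 rose and 22 fell, where 3.3% and 2.11% of 14354 genes did, with medians of −0.40 for the members and 0.02 for all genes; with median-centred libraries the split was 6 and 9, and without the filter on low values 4 and 2. These counts rest on single libraries: they were 2 and 0 without MZpou5f1, 4 and 8 without SoxB1 MO, 3 and 3 without Nanog+SoxB1 MO or without MZpou5f1 Nanog MO, and 1 and 5 without the triple loss. The gene lipg had 141 RPKM with Nanog MO, 157 with Nanog+SoxB1 MO, 208 with MZpou5f1 Nanog MO and 219 in the triple loss. It had 102, 111 and 134 RPKM in the SoxB1 MO, MZpou5f1 and MZpou5f1 SoxB1 MO embryos without Nanog MO. It rose by 0.73 with Nanog MO (SE 0.0788, adjusted p = 0.0038, limma), and the call was made without each library in turn.

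The zinc finger gene znf1127 had 0.51 RPKM with Nanog MO, 0.22 with Nanog+SoxB1 MO, 0.00 with MZpou5f1 Nanog MO and 0.11 in the triple loss. The libraries without Nanog MO had 23.9 RPKM with SoxB1 MO, 20.9 with MZpou5f1 and 2.29 with MZpou5f1 SoxB1 MO, and the groups did not overlap. Its log2 change of −4.38 (SE 0.589, adjusted p = 0.00955, limma) lost its call without MZpou5f1 or without MZpou5f1 Nanog MO. It also had 54.2 RPKM in rescued embryos, 62.3 RPKM in WT and 0.06 RPKM with amanitin at 4 hpf.

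With SoxB1 MO no member passed (limma; 0.0% of all genes did, with a lowest adjusted p of 0.0872). At an unadjusted p under 0.05 there were 72 members, 14 higher and 58 lower, and 17.5% of all genes. With MZpou5f1 30 of the 150 rose and 15 fell, where 20.7% and 15.1% of all genes did, with medians of 0.03 for both. The count that fell was 36 without the MZpou5f1 library and 8 without SoxB1 MO or without Nanog+SoxB1 MO, and 10 without the triple loss. The MZpou5f1 library had the median member without an intron entry at 0.70 above WT on the log2 scale, while the triple loss had it at −0.24. The entry h2ax had 2436 RPKM in MZpou5f1, but 1659, 1699 and 1673 RPKM in MZpou5f1 with Nanog MO, SoxB1 MO or both.

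The RNA-binding protein gene rbm45 had 24.1 RPKM in MZpou5f1 embryos, 22.0 with Nanog MO added, 24.5 with SoxB1 MO added and 20.1 in the triple loss. The libraries without the mutation had 87.9, 103 and 89.4 RPKM with Nanog MO, SoxB1 MO and both, and did not overlap the mutant ones. The change was −2.06 (SE 0.0726, adjusted p = 1.07e-05, limma). Rescued embryos had 21.5 RPKM, amanitin-treated embryos 33.5 RPKM and WT embryos 109 RPKM at 4 hpf. At 6 hpf WT replicates 1 and 2 had 27.8 and 31.0 RPKM and replicate 3 had 105 RPKM. The H2A entry hist1h2a4 had 576, 422, 431 and 339 RPKM in the 4 mutant libraries (MZpou5f1 alone, with Nanog MO, with SoxB1 MO and with both), against 248, 228 and 177 RPKM with Nanog MO, SoxB1 MO and both. It rose by 0.88 (SE 0.0796, adjusted p = 2.62e-04, limma), with no overlap. Between single libraries, 6 members were higher by 2-fold or more in rescued embryos than in the triple loss and 3 were lower, where 4.13% and 1.98% of entries were.

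Adding Nanog loss to MZpou5f1 SoxB1 MO at 6 hpf changed few members. Of the 150, 6 rose and 1 fell, where 1.51% and 2.35% of all genes did, with medians of 0.00 for the members and 0.15 for all genes; with median-centred libraries the split was 5 and 7, and without the filter on low values 3 and 0. The clone-named si:ch211-113a14.29 had 1225 RPKM in the triple loss and 438 RPKM in MZpou5f1 SoxB1 MO embryos, a log2 change of 1.48 (SE 0.148, adjusted p = 0.00407, limma). Both sides are 1 library each, so the spread comes from the WT and Nanog+SoxB1 MO replicates. Apart from amanitin and cycloheximide, the lowest and the highest of the other 6 hpf libraries had 1079.8 RPKM (Nanog MO) and 1559 RPKM (Nanog+SoxB1 MO replicate 1). No histone-named member passed. At an unadjusted p under 0.05 (limma) there were 35 of the 150 members, and 3250 of all 16242 genes tested. The counts of members that rose and fell were 1 and 0 without either Nanog+SoxB1 MO replicate and 3 and 0 without WT replicate 2. They were 6 and 0 without WT replicate 1 and 9 and 2 without WT replicate 3.

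The genes that process histone mRNA ends were read from a separate list of 11, of which 10 were tested. The stem-loop binding protein gene slbp2 had 324 RPKM with cycloheximide at 6 hpf, against 6.36, 9.99 and 11.4 RPKM in WT embryos, a log2 change of 5.10 (SE 0.296). In Nanog+SoxB1 MO embryos it had 67.9 and 75.8 RPKM, a change of 2.93 (SE 0.234). Both lay far above WT. The 3 maternal markers zar1, btg4 and buc also rose with cycloheximide and with Nanog+SoxB1 MO. How much of the slbp2 level was RNA kept from the egg was not tested. The exonuclease gene eri1, which trims histone mRNA ends, had 67.3 RPKM with cycloheximide against 8.61, 8.85 and 13.6 RPKM in WT. With cycloheximide 5 of the 10 rose (npat, casp8ap2 and cpsf3 beside these) and 4 fell (sympk, cstf2, srrt and upf1), while cpsf2 did not pass, where 37.5% of all genes rose and 23.0% fell. With amanitin 3 rose and 2 fell, where 31.0% and 28.7% of all genes did. With Nanog+SoxB1 MO 1 rose and 2 fell, where 30.3% and 14.0% did. The gene lsm11, for a component of the U7 snRNP, was listed at 0 in the 3 WT libraries at 6 hpf and was not tested.

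Intron levels are given as a description, and the share of other entries at each level was not computed. Of the 53 members with an entry in the intron table, 33 were under 1 RPKM in introns in WT embryos at 4 hpf. The other 20 were at 1 RPKM or more. At that level there was 1 in WT embryos at 2 hpf, 0 with amanitin at 4 hpf, 2 with cycloheximide and 21 with U1U2 MO. Of the 20, 16 had a higher intron level with U1U2 MO than in WT. Among 1650 other entries at 1 RPKM or more in introns, whatever their exon level, 11.4% did. A higher intron level than in WT was also measured for 18 of the 20 members with Nanog MO and for 18 with SoxB1 MO, where 39.3% and 64.8% of the other entries did. In the Nanog+SoxB1 MO, mutant and rescued libraries at 4 hpf it was measured for 13 to 16, against 26.1% to 69.9% of the other entries. With amanitin and with cycloheximide it was measured for 0 of the 20, against 1.21% and 4.06% of the other entries. A rise over the single WT library was thus not particular to U1U2 MO. Exon levels moved little: 1 member was at least 2-fold higher and 2 at least 2-fold lower with U1U2 MO than in WT, where 0.394% and 2.16% of entries were. These are single libraries and were not tested.

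Ribosome footprints at 2 hpf were available for 24 of the 49 members with a symbol. Footprints per input divide by poly(A)+ RNA, so a message with little poly(A)+ RNA has a high ratio by construction. All 6 matched histone-named members had more footprints than input (6 higher and 0 lower). The ratio of hist2h3c was 56.0 in Nanog+SoxB1 MO embryos (95% interval 45.9 to 68.9, from 2189 footprint and 103 input reads) and 33.9 in WT embryos (27.7 to 41.7, from 1025 and 107 reads), against medians over all transcripts of 0.527 in Nanog+SoxB1 MO and 0.538 in WT embryos. Intervals are exact and cover counting error only. The lowest of the 6 was zgc:165555, at 1.93 (0.803 to 4.50) in Nanog+SoxB1 MO embryos and 7.34 (3.66 to 15.5) in WT embryos. The 9 other named members gave 2 higher and 7 lower. The gene rbm45 was at 33.7 in Nanog+SoxB1 MO and 18.1 in WT embryos, and zglp1 was at 0.051, from 6 footprint and 312 input reads, in Nanog+SoxB1 MO and 0.037, from 3 and 285 reads, in WT embryos. Of the 24, 14 were higher and 10 lower in the fit of footprints against input, where 13.4% and 32.3% of 9239 transcripts were (limma, 1 residual degree of freedom). The clone-named members split into zgc:173552, zgc:114046, zgc:173587, zgc:173585, zgc:153409 and zgc:110329 above the median and zgc:113293, zgc:114123 and si:ch211-241j12.3 below it.

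**Figure D5:**
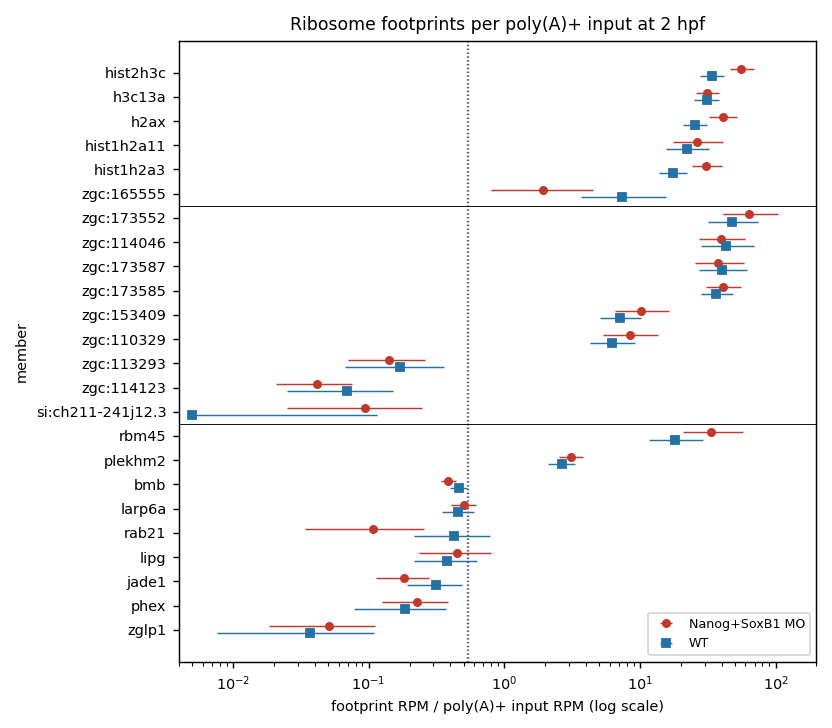
Footprint RPM divided by poly(A)+ input RPM at 2 hpf for the 24 matched members, on a log scale, with exact 95% counting intervals. Red circles are Nanog+SoxB1 MO and blue squares WT, 1 library pair each; dotted lines are the medians of all transcripts, and si:ch211-241j12.3, at 0 footprints in WT, is drawn near the left edge. The histone-named members lie at 1.93 to 56.0 in Nanog+SoxB1 MO and 7.34 to 33.9 in WT embryos.

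In poly(A)+ RNA of WT embryos at 8 hpf, 133 of the 150 members (88.7%) were under 10 RPKM, against 45.3% of the other entries, with medians of 2.45 RPKM for the members and 12.1 RPKM for the others. Their share of the summed RPKM at 8 hpf was 0.570% in the triple loss, 0.433% in rescued embryos and 0.195% in WT embryos. At 6 hpf it was 0.601% in the triple loss, 0.515% in rescued embryos and 0.196% in WT embryos. That WT poly(A)+ library at 6 hpf had entered the choice of members. Choosing members by low WT poly(A)+ values at earlier stages also favours low WT values at 8 hpf. The count under 10 RPKM, the member median and the WT share at 8 hpf are therefore not free of the choice. The poly(A)+ level of h2ax at 8 hpf was 72.5 RPKM in the triple loss, 85.5 RPKM in rescued and 22.0 RPKM in WT embryos, and that of lipg was 11.6 RPKM in the triple loss, 3.39 RPKM in rescued and 0.52 RPKM in WT embryos. Each value is from 1 library.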

How the data were processed

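Exon and intron levels were deposited in RPKM, 1 column per library, beside a profiling table. Bowtie 0.12.9, CASAVA 1.8.2, TopHat2 2.0.7 and the build Zv9 are named, without their roles, per the submitters' processing notes. The profiling table is labelled RPKM, but its deposited values are whole multiples of the value of 1 read (100% within 0.1 read), with no gene length in them, so they were read as RPM, with 399567 to 1612899 reads per library.

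RPKM values were tested with limma 3.58.1 (lmFit, eBayes with trend) in R 4.3.3 on log2(RPKM + 0.5), for genes that reached 1 RPKM in 2 or more libraries; all 150 members passed. The 4 hpf fit took 7 libraries and 3 additive terms, the 6 hpf fit 11 libraries by group, and each has 3 residual degrees of freedom. Footprints were tested against input on log2(RPM + 1) with condition as a block. Adjusted p is two-sided, Benjamini-Hochberg over all genes tested. edgeR 4.0.16 on the recovered whole reads was an alternative chosen after seeing the data. Fits were tested on simulated data whose spread was taken from the fits themselves, which cannot check how single libraries vary. Single-library groups at 6 hpf were tested with the spread of the WT and Nanog+SoxB1 MO replicates. Libraries at 2 hpf, inhibitor, U1U2 MO and rescue libraries at 4 hpf, intron levels and poly(A)+ RNA-seq get values and fold counts only.

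Members and lists were chosen with earlier results of these data known. Named members are the highest of each class, those with the largest changes, those at the thresholds and those under 2 times in the triple loss.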

Additional observations from a re-analysis of the deposited data

Results flagged for a closer look

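Some class medians lay on opposite sides of WT at 4 and at 6 hpf, by at least 0.3 on the log2 scale at both stages. These differences between stages were not tested, and the WT libraries on both sides entered the choice of members. The median log2 ratio of the 21 other named members in amanitin-treated over WT embryos was −0.34 at 4 hpf and 1.00 at 6 hpf. In Nanog+SoxB1 MO over WT embryos, the 19 clone-named members had a median of −0.32 at 4 hpf and 0.36 at 6 hpf. The 77 unnamed members without an intron entry had −0.34 at 4 hpf and 0.53 at 6 hpf in the same comparison. Just under the limit of 0.3 there, histone-named members had −0.29 and 0.49, and unnamed members with an intron entry −0.30 and 0.40. The 7217 other entries at 10 RPKM or more also had higher medians at 6 hpf. These were −0.06 at 4 hpf and 0.51 at 6 hpf for amanitin over WT. For Nanog+SoxB1 MO over WT they were 0.04 and 0.31.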

How the results depend on the processing

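Counts of members are given as higher and lower. Without a filter on low values they were 4 and 2 for Nanog MO, 52 and 1 for Nanog+SoxB1 MO against WT, 16 higher for amanitin against WT, 2 and 55 for amanitin against Nanog+SoxB1 MO, and 3 and 0 for the triple loss against MZpou5f1 SoxB1 MO; a filter at 5 RPKM gave 3 lower in the last. Median-centred libraries gave 9 lower for Nanog MO, 45 and 16 for Nanog+SoxB1 MO, 16 higher for amanitin against Nanog+SoxB1 MO and 7 lower for the triple loss, and turned 2 calls of Nanog+SoxB1 MO, si:dkey-261m9.5 (−0.0075) and si:ch211-113a14.11 (−0.0315). Leaving out 1 library at a time gave 1 to 8 and 0 to 24 for Nanog MO, 20 to 34 and 8 to 36 for MZpou5f1, 47 to 82 and 1 to 4 for Nanog+SoxB1 MO, 0 to 10 and 59 to 92 for amanitin against Nanog+SoxB1 MO, and 1 to 9 and 0 to 2 for the triple loss against MZpou5f1 SoxB1 MO; the cause was not tested. With the replicate number as a block, Nanog+SoxB1 MO gave 92 higher and 3 lower; the labels tie the numbers to no shared batch, and the deviations of same-numbered libraries from their group means correlated by 0.093 and 0.066 over 14896 genes. Without the limit of 150 there were 425 members, with a median log2 total to poly(A)+ ratio of 1.25 in the triple loss. Of the counts and medians recomputed, 146 kept their size and 47 moved; of the single-gene values, 1399 kept direction and call, 198 lost the call and 2 reversed. No count for cycloheximide moved by over 1.5 times.

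Most groups have 1 library, absolute depth is unknown for the RPKM tables, and levels are relative to library size.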
